A study of Mus musculus with 24 samples.

Results

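The genes described here encode 7 transcription regulators of the circadian clock and its outputs. They are the PAR bZIP activators Dbp, Tef and Hlf, the repressor Nfil3, and the repressors of the E-box loop Bhlhe40, Bhlhe41 and Ciart. They were chosen by name, with earlier results of these data known, and are 7 of the 47480 genes in the count table. Counts of them set beside the share over all genes are therefore a description. All 7 were listed under these symbols, and all 7 passed the filter on low counts. Their mRNA was measured in mouse embryonic fibroblasts labelled wild type, in 24 sequencing libraries that form 8 groups of 3. Each group combines an siRNA (siCTRL or siCop1), a compound (DMSO or KL001) and either no Dexa or Dexa. siCTRL is read as the control small interfering RNA, and siCop1 as the one directed against Cop1, the substrate receptor of a ubiquitin ligase. KL001 is a small molecule that stabilises the cryptochrome proteins, DMSO is its solvent, and Dexa, which the labels do not spell out, is left as written there. All 8 groups carry one of the siRNAs and either DMSO or KL001, so none of them holds untreated cells. The sources used here do not give the strain, embryo age, doses, exposure times or origin of the replicates. The p-values therefore measure the spread between these libraries, which may be technical. In such bulk samples, fewer cells of a type and less RNA per cell cannot be told apart.

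The clock of mammalian cells is a feedback loop in which CLOCK and BMAL1 bind E-boxes, with the core letters CACGTG, and PER and CRY proteins repress them. Dbp, Tef and Hlf are related basic leucine zipper activators that bind D-boxes, and Nfil3, also called E4BP4, is a repressor that binds the same sites. Bhlhe40 and Bhlhe41, also called DEC1 and DEC2, are basic helix-loop-helix repressors that bind E-boxes, and Ciart, also called CHRONO, is a repressor of CLOCK and BMAL1. In tissues with a running clock, transcription of Dbp is driven through E-boxes, while Nfil3 is controlled by the REV-ERB repressors Nr1d1 and Nr1d2. In fibroblasts, glucocorticoids are widely used to set the phase of the clock, and Per1 is a direct target of their receptor.

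In the GENCODE vM21 annotation of GRCm38, all 7 genes are protein coding. Dbp (ENSMUSG00000059824) lies at chr7:45705088-45710203 on the forward strand, Tef (ENSMUSG00000022389) at chr15:81802421-81826863 on the forward strand and Hlf (ENSMUSG00000003949) at chr11:90336536-90390895 on the reverse strand. Nfil3 (ENSMUSG00000056749) lies at chr13:52967209-52981073 on the reverse strand, and Ciart (ENSMUSG00000038550) at chr3:95878503-95882251 on the reverse strand. Bhlhe40 (ENSMUSG00000030103) lies at chr6:108660629-108666925 on the forward strand, and Bhlhe41 (ENSMUSG00000030256) at chr6:145858243-145865558 on the reverse strand. The exons of Dbp share 539 bases with exons of Sphk2 on the other strand. How strand was treated in the counting is not given in the sources used here. Reads from that stretch therefore cannot be assigned with certainty. Sphk2 passed the test in 3 of 12 comparisons, at log2 changes of 0.19 with Dexa in siCop1 DMSO, 0.12 with siCop1 in DMSO with Dexa and -0.16 with KL001 in siCop1 with Dexa. In the same 3 comparisons the log2 change of Dbp was -0.06, -0.24 and -0.51. Exons of Gm17597, 0610040F04Rik and Gm43909 overlap Tef, Bhlhe40 and Bhlhe41 on the other strand, and their group means stayed at or below 0.849, 0.113 and 0.175 CPM.

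The stretches before the start sites are shown because the E-box is the site that CLOCK and BMAL1 bind. Whether such sites bear on the changes of the 7 genes was not tested. RefSeq promoter windows of GRCm38.p6, from 250 bases before to 50 bases after a start, were found for 6 of the 7 genes, with 2 windows for Tef, and none for Bhlhe40. They were searched for the E-box CACGTG, the variant CACGTT, the D-boxes TTATGTAA and TTACGTAA, the cyclic AMP element TGACGTCA and the glucocorticoid element (AGAACA and TGTTCT separated by 3 bases), each on both strands. The bases before the start that lie outside annotated exons are printed 5′ to 3′ on the strand of the gene, with each match in capitals, for the 4 genes with a match there. The spans are chr3:95882252-95882478 for Ciart, chr15:81811164-81811413 for the second Tef window, chr6:145865559-145865670 for Bhlhe41 and chr11:90390918-90391167 for Hlf.
Ciart: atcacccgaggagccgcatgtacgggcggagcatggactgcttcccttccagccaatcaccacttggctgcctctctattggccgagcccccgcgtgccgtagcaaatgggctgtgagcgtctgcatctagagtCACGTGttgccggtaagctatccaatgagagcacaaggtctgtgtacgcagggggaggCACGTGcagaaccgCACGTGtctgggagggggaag
Tef: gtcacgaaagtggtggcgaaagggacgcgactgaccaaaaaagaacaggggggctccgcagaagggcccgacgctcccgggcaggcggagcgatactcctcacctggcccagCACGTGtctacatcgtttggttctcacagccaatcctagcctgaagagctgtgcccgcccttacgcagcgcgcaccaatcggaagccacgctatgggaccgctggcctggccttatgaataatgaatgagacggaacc
Bhlhe41: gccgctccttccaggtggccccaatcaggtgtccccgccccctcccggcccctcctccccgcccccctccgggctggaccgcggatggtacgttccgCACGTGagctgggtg
Hlf: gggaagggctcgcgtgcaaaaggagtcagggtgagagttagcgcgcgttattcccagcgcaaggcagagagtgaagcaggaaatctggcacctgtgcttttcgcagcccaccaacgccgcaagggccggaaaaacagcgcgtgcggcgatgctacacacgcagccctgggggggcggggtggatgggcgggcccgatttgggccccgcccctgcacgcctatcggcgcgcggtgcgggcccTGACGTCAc
Ciart carries 3 E-boxes, whose first bases lie at -116, -58 and -44 from the start. Of 32851 mouse windows of the same length, 7.15% hold at least 1 E-box and 0.0883% hold 3 or more. Tef has 1 E-box in each window, at -138 in the one shown and at -127 in the other, and Bhlhe41 has 1 at -153. Hlf holds no E-box and 1 cyclic AMP element at -9, a motif present in 1.79% of windows. The windows of Dbp and Nfil3 held none of the letters searched. No window of the 6 genes held CACGTT (4.68% of all windows), TTATGTAA (0.938%), TTACGTAA (0.119%) or the glucocorticoid element (0.00913%). A match is a description of the letters and not a bound site, and sites outside these windows were not searched.

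Libraries held 21409988 to 27875023 counts, with a median of 25337292. Levels are given as CPM, which is the count per 1000000 counts of a library, with the library total adjusted by TMM scaling. The libraries matched their siRNA and Dexa labels, and no gene was set as a check of the compound label. Rfwd2, the older symbol of Cop1, stood at 24.99 to 29.7 CPM with siCTRL and 4.33 to 5.79 CPM with siCop1, and Fkbp5, a glucocorticoid target, at 33.4 to 52.3 CPM without and 584 to 727 CPM with Dexa. The summed level of 8 fibroblast markers was 41081 to 58359 CPM per library. A list of 5 heart muscle genes, Myh6 among them, was uneven, at 18.7 to 92.7 CPM in 6 siCTRL libraries and at 0.927 to 3.15 CPM in the other libraries. The 6 comprised every library with siCTRL, DMSO and no Dexa, and replicate 2 of each other siCTRL group, at 92.7 CPM in DMSO with Dexa, 86.9 CPM in KL001 without Dexa and 22.4 CPM in KL001 with Dexa. Markers of epithelium (5 genes, 2.59 to 43.4 CPM), macrophages (5 genes, 2.55 to 15.1 CPM) and endothelium (4 genes, 0.729 to 2.81 CPM) were also far below the fibroblast sum.

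The 7 genes differed in how far they moved over the 8 groups. Hlf had the widest range, with the highest group mean 5.20-fold above the lowest, followed by Nfil3 (3.04-fold), Ciart (2.45-fold), Dbp (1.99-fold) and Tef (1.72-fold). Bhlhe41 (1.38-fold) and Bhlhe40 (1.26-fold) moved least. Tef had the most counts, at 166 to 292 CPM per library, and Hlf the fewest, at 1.0 to 6.49 CPM or 26 to 148 counts, which leaves it with the widest error. For Tef, Hlf, Nfil3, Bhlhe41 and Ciart the 4 groups with Dexa held the 4 highest means. Neighbours in this order were mostly separate for Tef and Nfil3, where only the lower groups without Dexa overlapped. They overlapped for Bhlhe41 over all 4 groups without Dexa, and between siCTRL KL001 and siCTRL DMSO with Dexa. Its lowest group with Dexa, siCop1 KL001, reached down to 20.7 CPM, within siCTRL DMSO without Dexa (19.2 to 21.1 CPM). For Ciart, siCop1 DMSO with Dexa (7.13 to 8.26 CPM) overlapped siCTRL DMSO without Dexa (6.91 to 8.34 CPM). For Dbp and Bhlhe40 the order of the means followed the compound instead. The 4 DMSO groups of Dbp had means of 26.6 to 37.1 CPM and the 4 KL001 groups 18.6 to 23.7 CPM, and those of Bhlhe40 were 35.5 to 39.3 CPM and 31.3 to 35.3 CPM. The 4 KL001 groups of Dbp overlapped from one neighbour to the next, while siCTRL DMSO without Dexa stood alone at the top. Single libraries crossed between the compounds. For Dbp, siCop1 DMSO with Dexa reached down to 24.3 CPM and siCTRL KL001 without Dexa up to 25.4 CPM. For Bhlhe40, siCop1 DMSO without Dexa (33.3 to 37.1 CPM) overlapped siCTRL KL001 with Dexa (34.2 to 35.9 CPM).

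**Figure D1:**
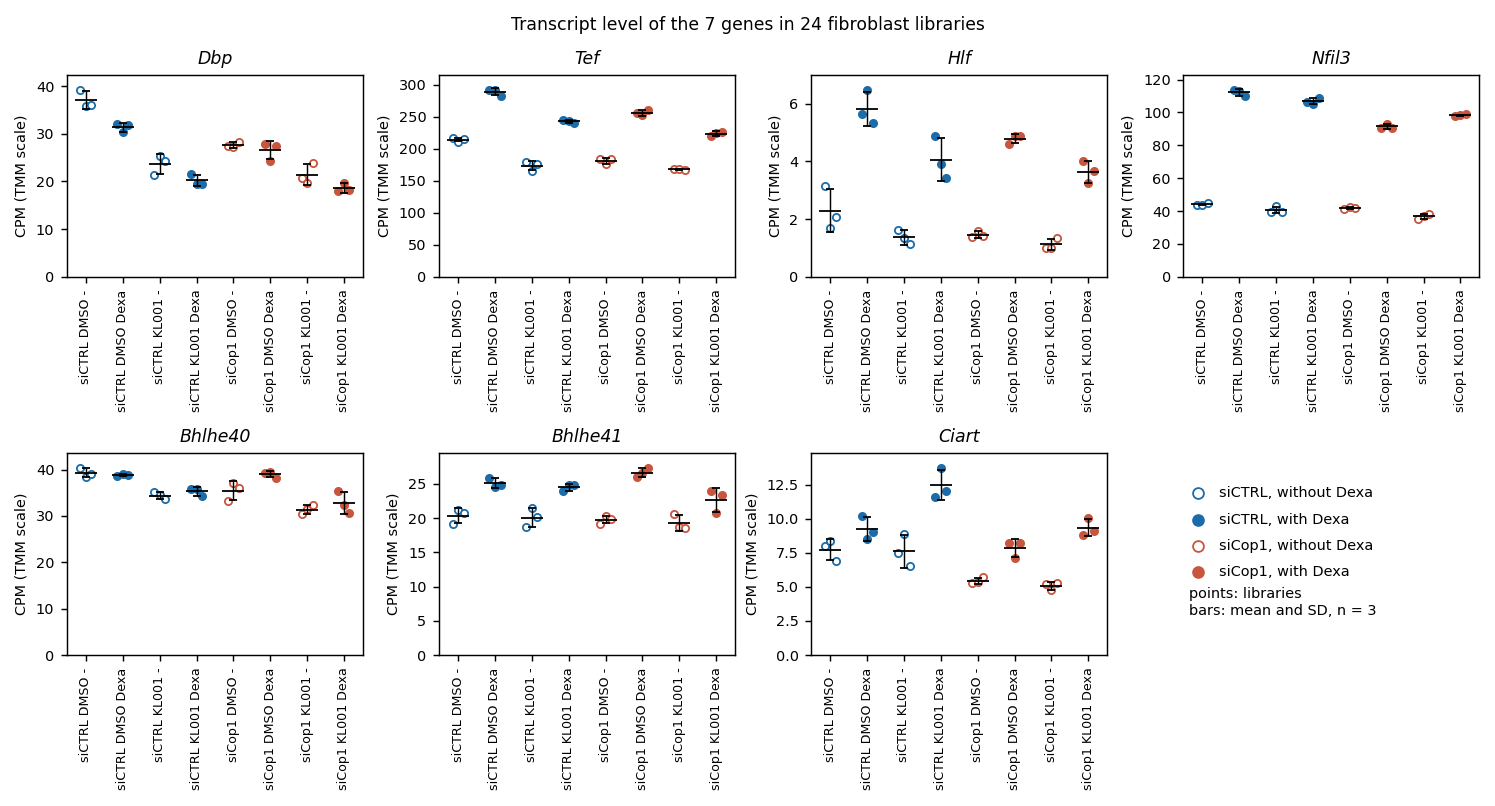
Level of each of the 7 genes in every library, in CPM on the TMM scale (vertical axis, from 0), by group (horizontal axis, where a dash marks no Dexa). Points are libraries, bars are the mean and SD of 3 libraries, blue is siCTRL, red is siCop1, and filled points have Dexa. Nfil3 and Hlf separate by Dexa with no overlap, and the Dbp means of all 4 DMSO groups lie above those of all 4 KL001 groups.

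Libraries with and without Dexa were compared at each siRNA and compound. Dexa raised Nfil3, Hlf, Tef and Bhlhe41 in 4 of 4 combinations and Ciart in 3 of 4. Dbp fell in 3 of 4, so it went against Tef and Hlf of its own family. Bhlhe40 rose in 1 of 4, by a log2 change of 0.14. In siCTRL DMSO 5 of the 7 genes changed, 4 higher and 1 lower, where 26.8% of all 14772 genes tested changed, 12.7% higher and 14.1% lower. In siCTRL KL001 it was 6 genes, 5 higher and 1 lower, beside 26.8% of all genes, 12.7% higher and 14% lower. In siCop1 DMSO it was 6, all higher, beside 23.7% of all genes, 12% higher and 11.6% lower. In siCop1 KL001 it was 6, 5 higher and 1 lower, beside 24.5% of all genes, 12.1% higher and 12.4% lower. A gene is called changed at an adjusted p below 0.05 (quasi-likelihood test of edgeR, Benjamini-Hochberg), and the comparisons of 1 factor share libraries with those of the others.

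Nfil3, the D-box repressor, had the largest change relative to its error. In siCTRL DMSO it stood at 43.7, 43.8 and 44.6 CPM without Dexa and at 114, 113 and 110 CPM with it, a log2 change of 1.35 (SE 0.035, adjusted p 5.43e-23 in edgeR's test). In siCTRL KL001 it rose from 39.3, 43.0 and 39.7 CPM to 106, 105 and 109 CPM, a log2 change of 1.4. In siCop1 DMSO it rose from 41.2, 42.3 and 41.7 CPM to 90.5, 93.1 and 90.7 CPM, a log2 change of 1.13. No library without Dexa came near those with it, and the 3 with siCop1, DMSO and Dexa were the lowest of the 12 with Dexa. In siCop1 KL001 it rose from 35.3, 37.1 and 38.2 CPM to 98.1, 98.2 and 98.7 CPM, a log2 change of 1.41.

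Hlf, the activator with the fewest counts, moved furthest on the log2 scale outside siCTRL DMSO. There it went from 3.14, 1.68 and 2.07 CPM to 5.64, 6.49 and 5.34 CPM (log2 change 1.33, SE 0.166, adjusted p 1.94e-07 in edgeR's test), and in siCTRL KL001 from 1.63, 1.36 and 1.12 to 4.87, 3.91 and 3.42 CPM (1.57). In siCop1 DMSO it went from 1.38, 1.59 and 1.41 to 4.61, 4.90 and 4.86 CPM (1.71), and in siCop1 KL001 from 1.01, 1.0 and 1.34 to 4.01, 3.25 and 3.67 CPM (1.70). All 12 libraries with Dexa lay above all 12 without it. Tef rose by less but with a much smaller error. It went from 216, 211 and 216 CPM to 292, 291 and 282 CPM in siCTRL DMSO (log2 change 0.43, SE 0.029, adjusted p 6.58e-13 in edgeR's test). The other log2 changes of Tef were 0.48 in siCTRL KL001, 0.50 in siCop1 DMSO and 0.41 in siCop1 KL001. All 12 libraries of Tef with Dexa also lay above all 12 without.

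Dbp went the other way. In siCTRL DMSO it stood at 39.3, 35.9 and 36.1 CPM without Dexa and 32.0, 30.3 and 31.8 CPM with it, which do not overlap (log2 change -0.24, SE 0.064, adjusted p 0.00465 in edgeR's test). In siCTRL KL001 it fell from 21.4, 25.4 and 24.2 CPM to 21.6, 19.5 and 19.5 CPM (-0.23, adjusted p 0.0178), where 1 library with Dexa lies within the range without. In siCop1 KL001 it fell from 20.7, 19.7 and 24 CPM to 18, 19.8 and 18.1 CPM (-0.20, adjusted p 0.0471), where again 1 library lies within the range without. In siCop1 DMSO the values overlapped, at 27.5, 27.1 and 28.3 CPM without and 27.9, 24.3 and 27.5 CPM with Dexa (-0.06, adjusted p 0.629). The siCTRL KL001 call was lost without KL001 replicate 2 (adjusted p 0.102) or 3 (0.0625) of the libraries without Dexa, or replicate 2 (0.0990) or 3 (0.106) of those with Dexa. The siCop1 KL001 call was lost in DESeq2 (0.0657), without KL001 replicate 1 (0.0536) or 3 (log2 change -0.11, adjusted p 0.361) of the libraries without Dexa, and without replicate 1 (0.160) or 3 (0.138) of those with Dexa.

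Among the E-box repressors, Ciart had the largest log2 change in 3 of 4 combinations, and in siCTRL DMSO Bhlhe41 had it. It rose from 7.46, 8.88 and 6.5 CPM to 11.6, 13.7 and 12.1 CPM in siCTRL KL001 (log2 change 0.71, SE 0.096, adjusted p 6.98e-07 in edgeR's test). In siCop1 DMSO it rose from 5.25, 5.33 and 5.72 to 8.26, 7.13 and 8.20 CPM (0.53), and in siCop1 KL001 from 5.23, 4.75 and 5.26 to 8.84, 10.1 and 9.11 CPM (0.88). None of these pairs of groups overlapped. In siCTRL DMSO, with 7.97, 8.34 and 6.91 CPM without and 10.2, 8.51 and 9.05 CPM with Dexa, the log2 change of 0.26 (SE 0.0999) missed the threshold at an adjusted p of 0.0508 in edgeR's test. It passed there with RLE scaling (0.0472), with no filter (0.0365), and without DMSO replicate 2 of the libraries without Dexa (0.0340) or of those with Dexa (0.0245).

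Bhlhe41 rose by log2 changes of 0.30 (SE 0.059, adjusted p 0.000172 in edgeR's test), 0.29, 0.43 and 0.23 in siCTRL DMSO, siCTRL KL001, siCop1 DMSO and siCop1 KL001. Its group means were 19.3 to 20.4 CPM without and 22.7 to 26.6 CPM with Dexa. In siCTRL DMSO its libraries stood at 19.2, 21.1 and 20.8 CPM without and 25.9, 24.5 and 24.8 CPM with Dexa, which do not overlap. Its close relative Bhlhe40 passed only in siCop1 DMSO (log2 change 0.14, adjusted p 0.0303), from 33.3, 37.1 and 36.0 to 39.3, 39.5 and 38.2 CPM. That call was lost with no filter (0.0979), in DESeq2 (0.0808), without DMSO replicate 1 of the libraries without Dexa (0.220) and without DMSO replicate 1 (0.0863) or 2 (0.0958) of those with Dexa. In the other combinations its log2 changes ran from -0.02 to 0.07. The summed fibroblast markers were lower with Dexa in DMSO, at 53290 to 54146 CPM against 54973 to 58359 CPM in siCTRL and at 46412 to 48028 CPM against 48546 to 50056 CPM in siCop1, and overlapped in KL001. Taken singly, 1 of the 8 markers was called higher with Dexa in each combination. Those called lower numbered 3 in siCTRL DMSO, 3 in siCTRL KL001, 2 in siCop1 DMSO and 1 in siCop1 KL001. The part of this shift in the changes with Dexa was not tested.

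**Figure D2:**
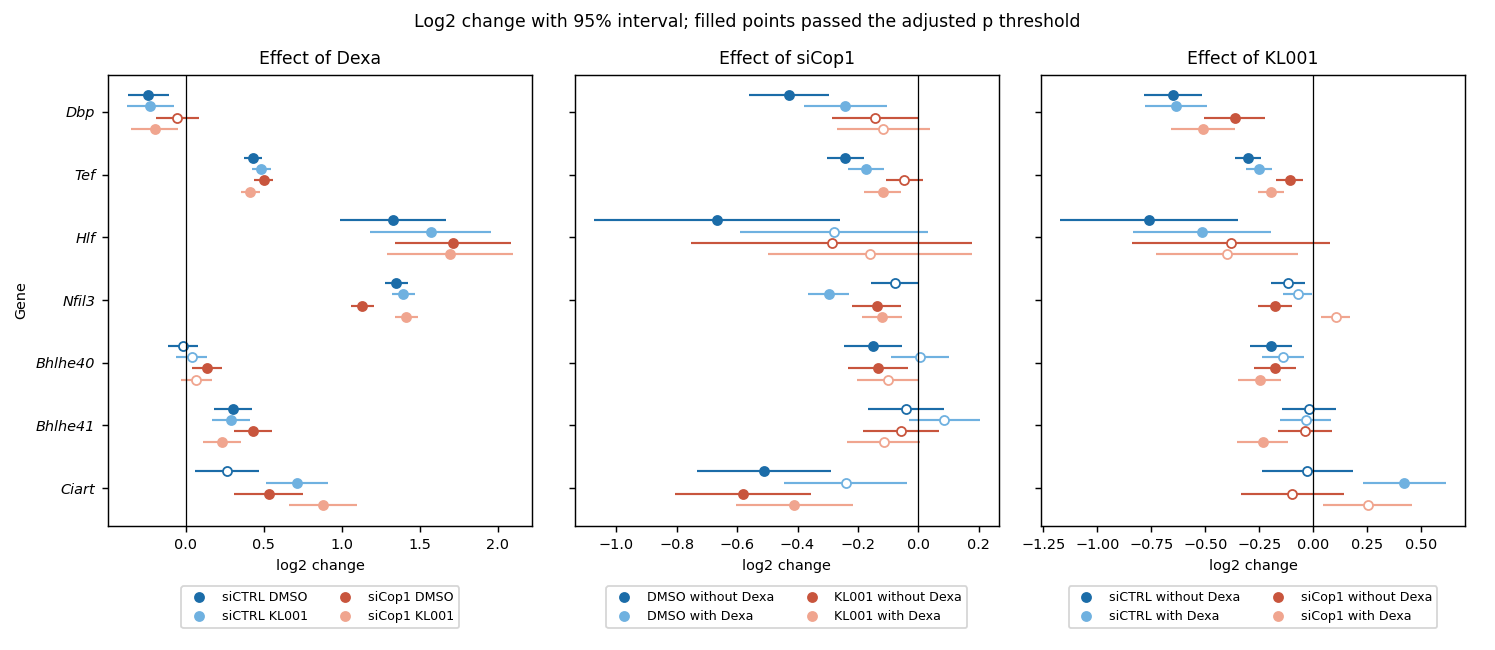
Log2 change of each gene (horizontal axis) with Dexa, siCop1 and KL001 (3 panels), each within the 4 combinations of the other factors. Lines are 95% intervals and filled points passed an adjusted p of 0.05. Nfil3 and Hlf lie above 1 in all 4 Dexa comparisons, and Dbp lies below 0 in all 4 KL001 comparisons.

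Libraries with siCop1 and siCTRL were compared at each compound, without and with Dexa. Where the 7 genes changed with siCop1 they were lower, and none rose. Ciart, Tef and Nfil3 fell in 3 of 4 comparisons each, Dbp and Bhlhe40 in 2 and Hlf in 1. Bhlhe41 passed in none of the 4, with log2 changes from -0.12 to 0.08 and adjusted p from 0.151 to 0.668 in edgeR's test. In DMSO without Dexa 5 of the 7 genes fell, where 29.4% of all genes changed, 12.8% higher and 16.6% lower, and 3 fell without siCTRL DMSO replicate 1. The count was 3 lower in DMSO with Dexa, beside 31.1% of all genes changed, 14.4% higher and 16.7% lower. It was 3 lower in KL001 with Dexa, beside 30.1%, 13.7% higher and 16.3% lower. In KL001 without Dexa it was 3 lower, beside 32.7%, 14.5% higher and 18.2% lower, and 1 with no filter, in a fit of those groups alone or without siCop1 KL001 replicate 1.

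Without Dexa, Ciart went from 7.97, 8.34 and 6.91 CPM with siCTRL to 5.25, 5.33 and 5.72 CPM with siCop1 in DMSO (log2 change -0.51, SE 0.108, adjusted p 0.000497 in edgeR's test). In KL001 without Dexa the log2 change was -0.58, from 7.46, 8.88 and 6.5 to 5.23, 4.75 and 5.26 CPM, and in KL001 with Dexa it was -0.41, from 11.6, 13.7 and 12.1 to 8.84, 10.1 and 9.11 CPM. In these 3 comparisons each siCop1 library lay below each siCTRL library. In DMSO with Dexa the libraries did not overlap either, but the log2 change of -0.24 missed the threshold (adjusted p 0.0673 in edgeR's test). It passed without siCTRL DMSO replicate 2 (-0.30, adjusted p 0.0374 in edgeR's test).

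Dbp fell in DMSO without Dexa from 39.3, 35.9 and 36.1 CPM to 27.5, 27.1 and 28.3 CPM (log2 change -0.43, SE 0.065, adjusted p 6.36e-06 in edgeR's test), with no overlap. In DMSO with Dexa it fell from 32.0, 30.3 and 31.8 to 27.9, 24.3 and 27.5 CPM (-0.24, adjusted p 0.00624), a call lost without siCop1 DMSO replicate 2 (-0.18, 0.0637). In KL001, where its level was lower to begin with, it did not pass, at -0.14 (adjusted p 0.130) without Dexa and -0.12 (0.272) with Dexa. The first of these passed without siCTRL KL001 replicate 1 (0.0287) or siCop1 KL001 replicate 3 (0.0174).

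Tef was lower with siCop1 in DMSO without Dexa, at 184, 176 and 183 CPM against 216, 211 and 216 CPM (log2 change -0.24, SE 0.030, adjusted p 1.75e-07 in edgeR's test). It fell by 0.17 on the log2 scale in DMSO with Dexa and by 0.12 in KL001 with Dexa. In KL001 without Dexa the groups overlapped (-0.05, adjusted p 0.241), and the comparison passed without siCTRL KL001 replicate 2 (-0.08, 0.0433). Nfil3 fell most in DMSO with Dexa, from 114, 113 and 110 to 90.5, 93.1 and 90.7 CPM (log2 change -0.30, SE 0.033, adjusted p 2.75e-08 in edgeR's test). It fell by 0.14 in KL001 without and by 0.12 in KL001 with Dexa, and was not called in DMSO without Dexa (-0.08, adjusted p 0.131). The KL001 call without Dexa was lost with no filter (0.0629), in a fit of those groups alone (0.120) and without siCTRL KL001 replicate 2 (0.0740) or siCop1 KL001 replicate 1 (0.0536).

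Hlf fell with siCop1 only in DMSO without Dexa, from 3.14, 1.68 and 2.07 CPM to 1.38, 1.59 and 1.41 CPM (log2 change -0.67, SE 0.199, adjusted p 0.0109 in edgeR's test). This rests on siCTRL DMSO replicate 1, and without it the log2 change was -0.36 (adjusted p 0.202). In the other 3 comparisons Hlf had log2 changes of -0.28 (DMSO with Dexa), -0.29 (KL001 without Dexa) and -0.16 (KL001 with Dexa), at adjusted p of 0.171 to 0.511. That library also had the highest heart muscle sum of its group, at 63.1 CPM against 18.7 and 25.4 CPM in the other siCTRL libraries and 0.927 to 3.15 CPM in the siCop1 libraries, where 1 of the 5 markers had no count. The macrophage sum was 4.11 to 5.20 CPM in those siCTRL libraries and 4.32 to 8.94 CPM in the siCop1 libraries, where 1 of its 5 markers had no count. The summed fibroblast markers were lower with siCop1 in all 4 comparisons, with no overlap: in DMSO they spanned 48546 to 50056 CPM against 54973 to 58359 CPM without Dexa and 46412 to 48028 CPM against 53290 to 54146 CPM with Dexa. In KL001 they spanned 42232 to 43678 CPM against 48001 to 52609 CPM without and 41081 to 43129 CPM against 46866 to 49005 CPM with Dexa, and none of the 8 genes was at 0. Taken singly, 3 and 2 of the 8 fibroblast markers were called lower and 0 higher in DMSO without and with Dexa. In KL001, 2 were called higher and 3 lower, both without and with Dexa. The part of these shifts in the differences with siCop1 was not tested.

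Bhlhe40 fell with siCop1 by 0.15 on the log2 scale in DMSO without Dexa (adjusted p 0.0148 in edgeR's test) and by 0.13 in KL001 without Dexa (0.0329). The first call was lost with no filter (0.0531) and without siCTRL DMSO replicate 1 (0.0685) or siCop1 DMSO replicate 1 (0.130). The second was lost with no filter (0.118), in DESeq2 (0.0861), in a fit of those groups alone (0.108), without siCTRL KL001 replicate 1 (0.0961) or 2 (0.0657) and without siCop1 KL001 replicate 1 (0.129) or 2 (0.0683). In KL001 with Dexa its log2 change was -0.10 (0.118), and it passed without siCop1 KL001 replicate 1 (-0.16, 0.0198).

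Libraries with KL001 and DMSO were compared for each siRNA, without and with Dexa. It lowered Dbp and Tef in 4 of 4 comparisons, Bhlhe40 in 3 and Hlf in the 2 with siCTRL. Ciart was the exception, with 1 increase and no decrease. In siCTRL without Dexa 4 of the 7 genes changed, all lower, where 6.73% of all genes changed, 3.22% higher and 3.51% lower. In siCTRL with Dexa it was 4, 3 lower and 1 higher, beside 10.6% of all genes, 4.98% higher and 5.58% lower. In siCop1 it was 4 without Dexa, all lower, beside 4.09% of all genes, 1.77% higher and 2.32% lower. With Dexa it was again 4, all lower, beside 5.46% of all genes, 2.5% higher and 2.97% lower. In a fit of those groups alone, the first of these counts was 2, as Hlf (adjusted p 0.178) and Bhlhe40 (0.105) did not pass. In siCop1 without Dexa it was 2 with no filter, as Tef (0.148) and Bhlhe40 (0.0514) did not pass, 2 without DMSO replicate 3 or KL001 replicate 2, and 1 without KL001 replicate 1.

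In siCTRL Dbp fell from 39.3, 35.9 and 36.1 to 21.4, 25.4 and 24.2 CPM without Dexa (log2 change -0.65, SE 0.067, adjusted p 6.49e-08 in edgeR's test), and from 32.0, 30.3 and 31.8 to 21.6, 19.5 and 19.5 CPM with Dexa (-0.63). In siCop1 it fell from 27.5, 27.1 and 28.3 to 20.7, 19.7 and 24 CPM without Dexa (-0.36) and from 27.9, 24.3 and 27.5 to 18, 19.8 and 18.1 CPM with Dexa (-0.51). In each comparison all 3 KL001 libraries lay below all 3 DMSO libraries, and the 4 calls held under all 11 alternatives run. Tef fell less, by log2 changes of -0.30 (SE 0.030, adjusted p 2.99e-08 in edgeR's test) and -0.25 in siCTRL without and with Dexa, and of -0.11 and -0.20 in siCop1. The smallest of these, in siCop1 without Dexa (184, 176 and 183 to 168, 169 and 167 CPM), had an adjusted p of 0.0302. It was lost without KL001 replicate 1 (0.0876), 2 (0.0836) or 3 (0.101), and also without replicate 1 (0.148) or 3 (0.137) of the DMSO libraries.

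Hlf fell with KL001 in siCTRL, by log2 changes of -0.76 without Dexa (SE 0.202, adjusted p 0.0180 in edgeR's test) and -0.52 with Dexa (SE 0.156, adjusted p 0.0305). Without Dexa its libraries stood at 3.14, 1.68 and 2.07 CPM with DMSO and 1.63, 1.36 and 1.12 CPM with KL001, and with Dexa at 5.64, 6.49 and 5.34 against 4.87, 3.91 and 3.42 CPM. The groups did not overlap, though the margin without Dexa was narrow. The first call was lost without KL001 replicate 3 (0.104), and without DMSO replicate 1 (-0.46, adjusted p 0.205). The second was lost in DESeq2 (0.0566), without KL001 replicate 2 (0.101) or 3 (0.178), and without replicate 1 (0.0618) or 2 (0.115) of the DMSO libraries. In siCop1 the groups did not overlap either, without or with Dexa. The log2 changes there, -0.38 (adjusted p 0.471 in edgeR's test) and -0.40 (0.183), did not pass, and the latter passed in a fit of those groups alone (0.0356). The difference between the siRNA groups, the siCop1 by KL001 term, was not called.

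Nfil3 changed little with KL001. It fell in siCop1 without Dexa, from 41.2, 42.3 and 41.7 to 35.3, 37.1 and 38.2 CPM (log2 change -0.18, SE 0.039, adjusted p 0.00444 in edgeR's test), a call lost without KL001 replicate 1 (0.0513). In siCTRL its log2 changes were -0.12 (adjusted p 0.0648) and -0.07 (0.182) without and with Dexa, and the first passed without KL001 replicate 2 (-0.16, 0.0158). In siCop1 with Dexa the value was on the other side, at 0.10 (adjusted p 0.0636), and it passed with RLE scaling (0.0497) and in a fit of those groups alone (0.0265).

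Bhlhe40 fell with KL001 by 0.19 on the log2 scale in siCTRL without Dexa (SE 0.047, adjusted p 0.00920 in edgeR's test), by 0.18 in siCop1 without Dexa (0.0276) and by 0.25 in siCop1 with Dexa (0.00104). It stood at -0.14 (0.0577) in siCTRL with Dexa. The siCop1 call without Dexa was lost without KL001 replicate 1 (0.137) or 2 (0.0814), and without replicate 2 (0.174) or 3 (0.114) of the DMSO libraries. Bhlhe41 fell only in siCop1 with Dexa, from 26.0, 26.5 and 27.3 to 23.9, 20.7 and 23.4 CPM (-0.23, SE 0.058, adjusted p 0.0127), and that call was lost without DMSO replicate 3 (0.0708) or KL001 replicate 2 (0.145). In the other 3 comparisons its log2 changes ran from -0.04 to -0.02.

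Ciart rose with KL001 in siCTRL with Dexa, from 10.2, 8.51 and 9.05 to 11.6, 13.7 and 12.1 CPM (log2 change 0.42, SE 0.094, adjusted p 0.00312 in edgeR's test), with no overlap. In siCop1 with Dexa it went from 8.26, 7.13 and 8.20 to 8.84, 10.1 and 9.11 CPM (0.25, adjusted p 0.171), which do not overlap but missed the threshold. Without Dexa the values overlapped in both, at -0.03 (adjusted p 0.929) in siCTRL and -0.10 (0.793) in siCop1. The summed fibroblast markers were also lower with KL001 in all 4 comparisons, with no overlap. In siCTRL without Dexa, for example, they spanned 54973 to 58359 CPM with DMSO and 48001 to 52609 CPM with KL001. Taken singly, 4 of the 8 markers were called lower in each siCTRL comparison and 3 in each siCop1 comparison, and 0 were called higher. The part of this shift in the changes of the 7 genes was not tested.

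Whether an effect depended on another factor was tested with 6 interaction terms for each gene, 42 in all. Of these, 11 had an unadjusted p below 0.05 and 2 passed after adjustment over all genes, both for Nfil3. The siCop1 by Dexa term in DMSO was -0.22 (SE 0.050, 95% interval -0.32 to -0.12, adjusted p 0.0278 in edgeR's test): the log2 change of Nfil3 with Dexa was 1.35 with siCTRL and 1.13 with siCop1. It was the only one of the 7 genes called in that term, where 0.67% of all genes were called, 0.291% higher and 0.379% lower. The KL001 by Dexa term in siCop1 was 0.28 (SE 0.051, 95% interval 0.18 to 0.39, adjusted p 0.0192), from 1.13 in DMSO to 1.41 in KL001, and 0.0677% of all genes were called, 0.0474% higher and 0.0203% lower. Both terms use the siCop1 DMSO libraries with and without Dexa, so they are not independent of each other.

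Both Nfil3 calls were near the threshold. The first was lost with no filter (adjusted p 0.0592), without siCTRL DMSO replicate 1 (0.0681) or 2 (0.0576) or siCop1 DMSO replicate 1 (0.0516), 2 (0.0958) or 3 (0.0651) of the libraries without Dexa, and without siCop1 DMSO replicate 1 (0.0545) or 3 (0.0798) of those with Dexa. The second was lost without siCop1 DMSO replicate 1 (0.0614), 2 (0.0692) or 3 (0.0713) or siCop1 KL001 replicate 1 (0.126) or 2 (0.0655) of the libraries without Dexa. It was also lost without siCop1 DMSO replicate 1 (0.108) or 3 (0.0818) or siCop1 KL001 replicate 1 (0.0546), 2 (0.0586) or 3 (0.0637) of those with Dexa, all in edgeR's test. The terms themselves stayed at -0.25 to -0.21 and 0.25 to 0.31 under all 17 alternatives run.

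In the other 4 terms none of the 7 genes passed in edgeR's test. For siCop1 by Dexa in KL001, 0 of 7 had an unadjusted p below 0.05 and DESeq2 called 0 (0.562% of all genes were called in edgeR). For KL001 by Dexa in siCTRL, 1 of 7 had such a p and DESeq2 called 0 (0% of all genes in edgeR). This was Ciart, whose log2 change with Dexa was 0.26 in DMSO and 0.71 in KL001, a term of 0.45 (95% interval 0.16 to 0.73, adjusted p 0.595). For siCop1 by KL001 without Dexa, 2 of 7 had such a p and DESeq2 called 1 (0% of all genes in edgeR). These were Dbp, at 0.29 (95% interval 0.09 to 0.48, adjusted p 0.516), and Tef, at 0.19 (95% interval 0.11 to 0.28, adjusted p 0.106), which was the one DESeq2 called (adjusted p 0.00676). For both, the log2 change with siCop1 was more negative in DMSO (-0.43 and -0.24) than in KL001 (-0.14 and -0.05). For siCop1 by KL001 with Dexa, 2 of 7 had such a p and DESeq2 called 0 (0.0677% of all genes in edgeR).

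The balance among the genes that share the D-box was described per transcript length, as CPM per kb of annotated exon. Tef made up most of the summed level of the 3 activators in all groups, and its share was higher with Dexa where that of Dbp was lower. In siCTRL DMSO the share of Tef was 68.1% ± 1.10 (SD, n = 3) without and 76.4% ± 0.565 with Dexa, and that of Dbp was 31.0% ± 0.860 and 21.8% ± 0.736. The share of Hlf was 0.856% ± 0.259 and 1.81% ± 0.178. The highest share of Tef was found with KL001 and Dexa together, at 80.7% ± 0.95 in siCTRL and 80.7% ± 0.600 in siCop1. The summed activators themselves were 40.0 ± 1.01 CPM per kb in siCTRL DMSO without Dexa and 28.7 ± 0.712 in siCop1 KL001 without Dexa, the highest and lowest of the groups without Dexa.

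Nfil3 stood below the summed activators in every library without Dexa and above them in every library with it. Its ratio to their sum in siCTRL DMSO was 0.544 ± 0.0164 (SD, n = 3) without and 1.15 ± 0.00567 with Dexa. It went from 0.665 ± 0.0419 to 1.38 ± 0.0475 in siCTRL KL001, from 0.635 ± 0.0211 to 1.07 ± 0.0460 in siCop1 DMSO and from 0.635 ± 0.0191 to 1.38 ± 0.0211 in siCop1 KL001. With Dexa, the 6 KL001 libraries lay above the 6 DMSO libraries in this ratio. With 3 libraries against 3 an exact permutation test cannot go below p = 0.1, so the ratios are given without one. Which of the annotated exons are used in these cells was not examined, and the ratio depends on the lengths.

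**Figure D3:**
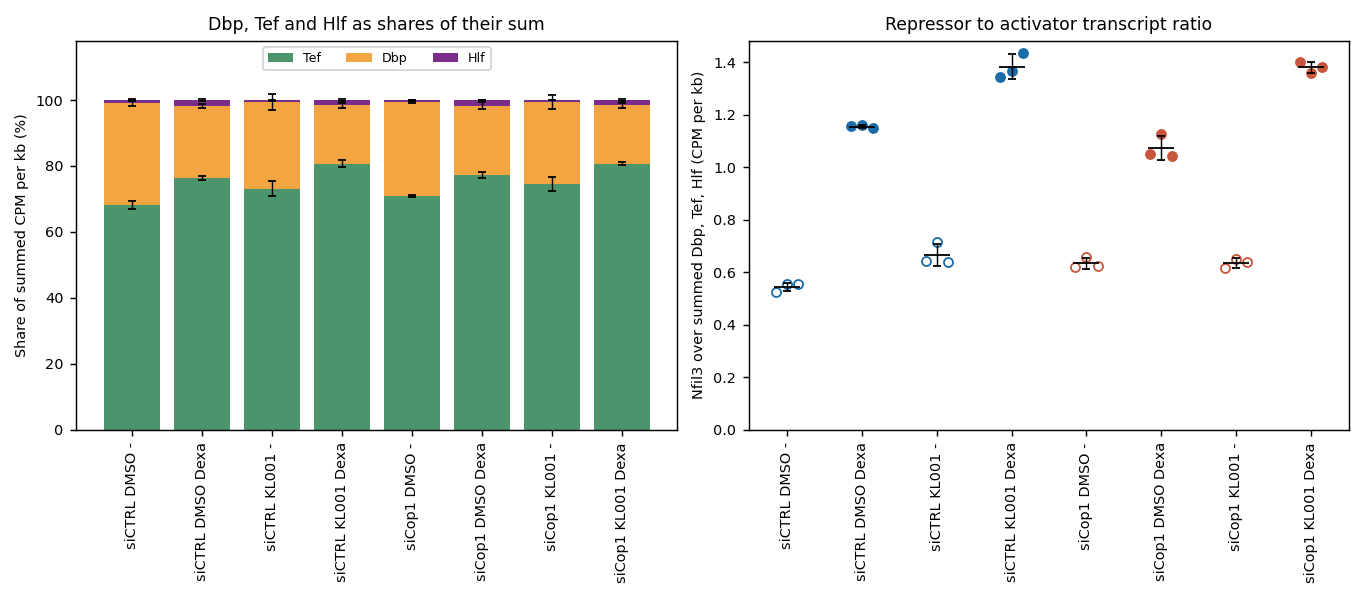
Left, share of Tef, Dbp and Hlf in their summed CPM per kb (vertical axis, percent) by group, with the SD of 3 libraries, where Tef holds 68.1% to 80.7% of the sum. Right, ratio of Nfil3 to that sum in each library (points) with mean and SD, blue for siCTRL, red for siCop1 and filled for Dexa, where the ratio is below 1 without Dexa and above 1 with it.

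The rest of the clock was read from a list of 14 core genes and a list of 9 outputs, some of them described as targets of the PAR bZIP factors. With Dexa in siCTRL DMSO 4 core genes rose and 6 fell (median log2 change -0.20, against -0.01 over all genes), and in the other 3 combinations 4 rose and 3 fell. The period genes Per1 (log2 changes 2.22 to 2.44) and Per2 (1.39 to 1.85) and the cryptochromes Cry1 (0.56 to 1.0) and Cry2 (0.27 to 0.44) rose in all 4 combinations. The REV-ERB repressors Nr1d1 (-0.68 to -0.37) and Nr1d2 (-0.41 to -0.19) fell in all 4. Npas2, a partner of BMAL1, fell in 3 of 4, and Arntl, which encodes BMAL1, and Per3 fell only in siCTRL DMSO. Dbp stood with Nr1d1 and Nr1d2 in sign, and Nfil3, Tef, Hlf, Bhlhe41 and Ciart with Per1, Per2 and the cryptochromes. Among the outputs, 4 or 5 of 9 rose in each combination and at most 1 fell. Over all genes, 12% to 12.7% rose and 11.6% to 14.1% fell in the 4 combinations. Usp2, a deubiquitinase, rose by 1.42 to 1.57, Wee1, a cell cycle kinase, by 0.81 to 1.05, and Nampt, an enzyme of NAD synthesis, by 0.17 to 0.25 on the log2 scale.

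With siCop1 in DMSO without Dexa 4 of the 14 core genes changed, where 29.4% of all genes did. Of these 1 rose and 3 fell (Per2 at -0.41, Cry2 at -0.18 and Nr1d2 at -0.24, with a list median of -0.10 against -0.01 over all genes). In the other 3 comparisons 0 or 1 rose and 1 fell. Of all genes, 31.1% changed in DMSO with Dexa, 32.7% in KL001 without and 30.1% in KL001 with Dexa. Neither Per1 nor Nr1d1 passed in any of the 4, and their log2 changes lay between -0.04 and 0.05. Of the outputs, 1 rose and 2 fell in DMSO both without and with Dexa, 1 rose and 3 fell in KL001 without Dexa, and 3 rose and 1 fell in KL001 with Dexa. These counts are out of 9 and stand beside 29.4% to 32.7% of all genes changed. Usp2 fell in all 4, by log2 changes of -0.35, -0.50, -0.40 and -0.50, and Nampt fell in 3 of 4.

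With KL001, 2 core genes were higher in each comparison, Nr1d1 (log2 changes 0.66 to 0.99) and Nr1d2 (0.22 to 0.57). The core genes lower numbered 7 and 5 in siCTRL without and with Dexa (list medians -0.30 and -0.09) and 6 and 5 in siCop1 (-0.18 and -0.04), and the medians over all genes were -0.00257, -0.00123, 0.00268 and -0.000825 in the same order. Over all genes, 1.77% to 4.98% rose and 2.32% to 5.58% fell in the 4 comparisons. Of the 9 outputs, at most 1 rose and at most 1 fell in each KL001 comparison, and Wee1 and Nampt passed in none. Usp2 was called lower in the 2 comparisons with Dexa (-0.21 in both siCTRL and siCop1). Without Dexa its mean was also lower with KL001, at 10.6 against 12.1 CPM in siCTRL and 8.04 against 9.52 CPM in siCop1. The siCTRL libraries of that pair overlapped. Dbp and Tef fell in the same 4 comparisons in which 7 to 9 of the 9 outputs did not pass.

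**Figure D4:**
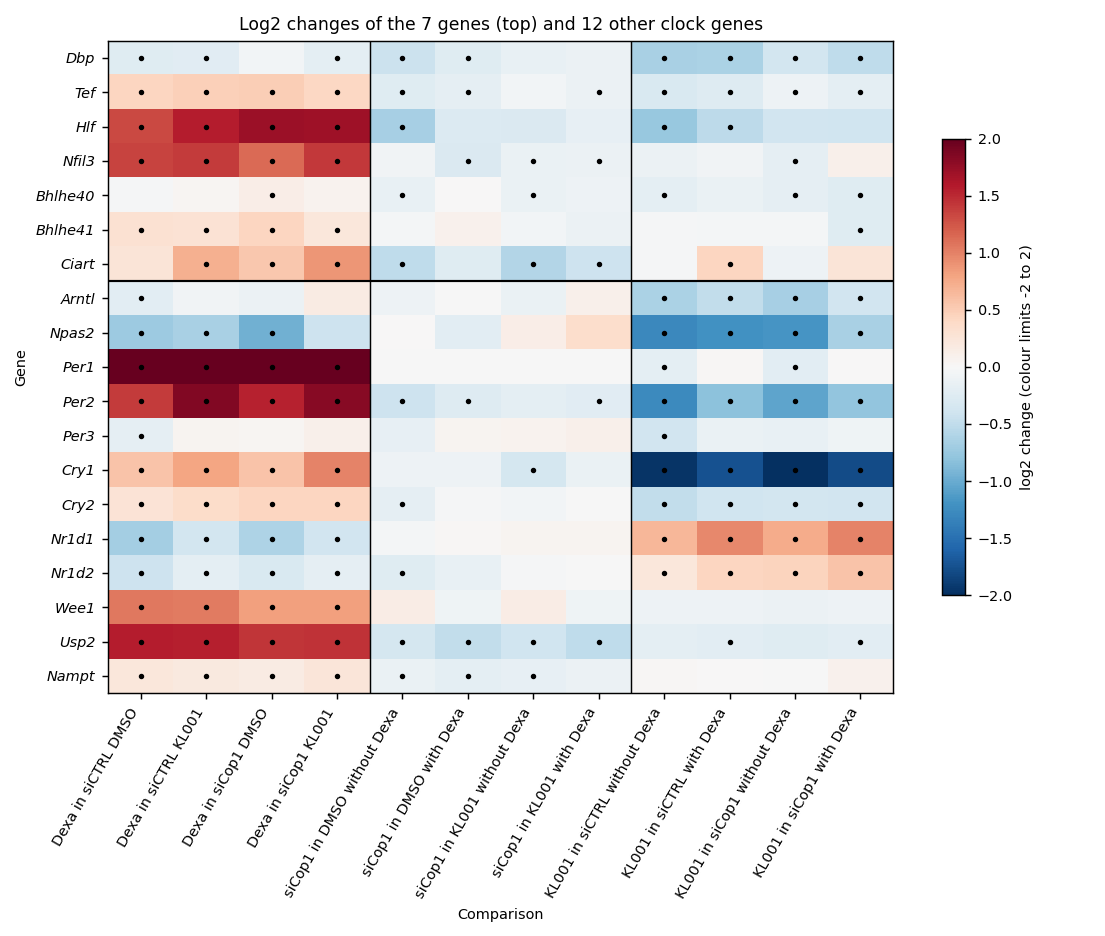
Log2 change (colour, limited to -2 to 2, red higher, blue lower) of the 7 genes (top) and 12 other clock genes (bottom) in the 12 simple comparisons, with dots at an adjusted p below 0.05. Dbp is blue in the 3 Dexa columns where it passed and Tef, Hlf and Nfil3 are red, and Cry1 is the darkest blue under KL001.

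Likeness of pattern was measured by Pearson's r over the 8 group means of log2 CPM, as a description without a test, since the groups share Dexa, siRNA and compound and so give many genes like patterns. Tef and Hlf had r = 0.983 with each other, and Hlf and Nfil3 had 0.955. By this measure Dbp was apart from its family, at 0.227 with Tef and 0.0746 with Hlf. It had its highest value among the 7 with Bhlhe40, at 0.811. The log2 changes of Dbp, Tef and Hlf were nonetheless all negative in every siCop1 and KL001 comparison, and differed in sign with Dexa. The search for other genes of like pattern did not leave out the rest of the 7. It kept genes with a mean of at least 5 CPM and group means spanning at least 0.5 on the log2 scale, which left 1985 genes for Dbp. Of these it was most like Lama4, a laminin subunit (0.989), Cpxm1 (0.978) and Islr (0.954), and 4 genes exceeded 0.95. Nfil3 was most like Foxo3, a forkhead factor (0.999), Klf9, a known glucocorticoid target (0.998), and Suox (0.997), and 211 genes exceeded 0.95. Tef was most like Plagl1 (0.993), Omd (0.987) and Porcn (0.987), with 37 genes above 0.95. Hlf was most like Cped1 (0.993), Adamtsl4 (0.992) and Rfxank (0.991), with 82 genes above 0.95, Tef and Nfil3 among them. Ciart was most like Hivep3 (0.987), Foxk1 (0.976) and Akap12 (0.972), with 12 genes above 0.95. Bhlhe40 and Bhlhe41 spanned less than 0.5 and were not searched.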

How the data were processed

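Every test ran on the raw counts that the authors deposited, given for each gene symbol in each library. Per the submitters' processing notes, the build was GRCm38 (mm10) and the tools named were bcl2fastq 1.8.4, STAR 2.4.5a, featureCounts of Subread 1.4.6-p3, DESeq2 and Picard 1.126, with no order or settings. Per the labels' protocols, the libraries were stranded mRNA libraries (TruSeq) read as short single reads on 3 lanes, and no batch is given per library. A deposited normalized table was not used, and 0 columns of counts were left unused.

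Counts were analysed in R 4.3.3 with edgeR 4.0.16: filterByExpr (minimum count 10, minimum total 15; 14772 genes kept), TMM scaling, and a robust quasi-likelihood fit on all 24 libraries with 1 mean per group. The 12 simple effects and 6 interactions were tested two-sided with Benjamini-Hochberg adjustment over all genes tested, at 0.05. The common biological coefficient of variation was 3.71%. Replicates of a group were not identical and differed by more than counting noise (chi-square per degree of freedom 1.60 to 9.27). PCR copies were not told apart. The pipeline was checked on simulated counts.

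The 7 genes and the gene lists were chosen with earlier results of these data known. Named are the 7 genes, with Rfwd2 and Fkbp5 as checks of the siRNA and Dexa labels. Also named are 12 genes of the core clock and output lists and the 3 genes most like each of the 7 that was searched. Sphk2 and the other genes overlapping the 7 were added later. Alternatives were RLE scaling, no filter, DESeq2 1.42.0, a block for the replicate number, a fit of only the groups being compared, each library left out in turn, and Spearman's correlation for likeness. Exon lengths came from GENCODE vM21 and promoter windows from RefSeq.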

Additional observations from a re-analysis of the deposited data

Results flagged for a closer look

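The response of Nfil3 to Dexa differed between siRNAs in DMSO by the test of the difference itself: the siCop1 by Dexa term was -0.22 on the log2 scale (SE 0.050, adjusted p 0.0278 in edgeR's test), and it passed under 9 of 17 alternatives.

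The response of Nfil3 to Dexa also differed between compounds in siCop1, with a KL001 by Dexa term of 0.28 (SE 0.051, adjusted p 0.0192 in edgeR's test), which passed under 7 of 17 alternatives. Of the 3 libraries with siCop1, DMSO and Dexa, which enter both terms, none exceeded 93.1 CPM, while the other 9 libraries with Dexa had 98.1 CPM or more.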

How the results depend on the processing

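Of 84 simple effects of the 7 genes, 53 passed, 38 of these passed under all 11 alternatives run for each, and all 53 kept their sign. Both interaction calls kept their sign, and neither passed under all 17. The cause of the changes below was not tested.

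With no filter, the number of the 7 genes changed went from 3 to 1 for siCop1 in KL001 without Dexa, from 4 to 2 for KL001 in siCop1 without Dexa, and from 1 to 0 for siCop1 by Dexa in DMSO. In DESeq2 it went from 0 to 1 for siCop1 by KL001 without Dexa. In a fit of those groups alone it went from 3 to 1 for siCop1 in KL001 without Dexa and from 4 to 2 for KL001 in siCTRL without Dexa. Without single libraries it ranged from 3 to 5 for siCop1 in DMSO without Dexa, from 1 to 4 for siCop1 in KL001 without Dexa, from 1 to 3 for KL001 in siCop1 without Dexa, and from 0 to 1 for siCop1 by Dexa in DMSO and KL001 by Dexa in siCop1.

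Values that changed sign when single libraries were left out had not passed: Bhlhe40 with Dexa in siCTRL DMSO (-0.0236 to 0.00112), Dbp with Dexa in siCop1 DMSO (-0.0925 to 0.00372), Bhlhe40 with siCop1 in DMSO with Dexa (-0.00776 to 0.0201), and Bhlhe41 (-0.0692 to 0.0295) and Ciart (-0.149 to 0.0758) with KL001 in siCTRL without Dexa, given as lowest to highest log2 change.

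Counts over all genes that moved by more than 1.5 times were these. With RLE scaling, KL001 by Dexa in siCop1 went from 10 to 5 genes. With no filter, siCop1 by Dexa went from 99 to 230 in DMSO and from 83 to 156 in KL001, KL001 by Dexa from 0 to 133 in siCTRL and from 10 to 43 in siCop1, and siCop1 by KL001 from 0 to 61 without and from 10 to 59 with Dexa. In DESeq2, KL001 by Dexa in siCTRL went from 0 to 2, and siCop1 by KL001 from 0 to 14 without and from 10 to 25 with Dexa. In a fit of those groups alone, KL001 in siCTRL without Dexa went from 994 to 225, KL001 in siCop1 from 604 to 950 without and from 807 to 1435 with Dexa, siCop1 by Dexa in KL001 from 83 to 52, and KL001 by Dexa in siCop1 from 10 to 24. Without single libraries, KL001 in siCTRL ranged from 653 (without DMSO replicate 3) to 1165 without Dexa and from 928 (without DMSO replicate 1; 962 without KL001 replicate 3) to 1416 with Dexa, and KL001 in siCop1 with Dexa from 502 (without KL001 replicate 3; 509 without DMSO replicate 1) to 611. For the interactions it ranged from 71 to 107 and from 43 to 94 for siCop1 by Dexa in DMSO and KL001, from 0 to 3 and from 1 to 7 for KL001 by Dexa in siCTRL and siCop1, and from 0 to 6 and from 2 to 10 for siCop1 by KL001 without and with Dexa.

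The labels do not say that a replicate number marks a shared culture or day, and over all genes the libraries were not treated as paired: deviations of libraries with the same number had a median r of 0.0119, with 19 of 84 pairs over 0.1. For libraries with different numbers the median r was -0.00155, with 27 of 168 pairs over 0.1. As a hint of a link, 13 of 24 libraries correlated best with their own number. In the count table, libraries with the same siRNA and replicate number share the stem of their column name, and the stems differ between siRNAs. What a stem stands for is not given in the sources used here. This check and the replicate block pooled the numbers over both siRNAs, so pairing within an siRNA was not tested by itself. The heart muscle sum was highest in replicate 2 of each siCTRL group except DMSO without Dexa. There replicate 2 had the lowest sum, at 18.7 CPM against 63.1 and 25.4 CPM. With the replicate block, 1 call on the 7 genes was lost, Dbp with Dexa in siCop1 KL001 (log2 change -0.20, adjusted p 0.0551 in edgeR's test), and the genes called went from 10 to 5 both for KL001 by Dexa in siCop1 and for siCop1 by KL001 with Dexa. By Spearman's rho, 2 of the 3 genes named as most like Dbp, 2 for Tef, 1 for Hlf, 2 for Nfil3 and 0 for Ciart ranked among the first 3. Depth limits Hlf most, at 26 to 148 counts per library.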
